A study of Mus musculus with 4 samples.

Results

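The SLAM family is a group of cell-surface receptors of the immunoglobulin superfamily. Its genes in these data are *Slamf1*, *Slamf6*, *Slamf7*, *Slamf8*, *Slamf9*, *Cd84*, *Cd48*, *Cd244a* and *Ly9*. With them is *Sh2d1b1*, which encodes EAT-2, an adaptor that binds the cytoplasmic tails of many of the receptors. The 10 genes were matched by symbol and were all found among the 21462 genes of the table. They were selected on their higher values in the mutant libraries of this same comparison, so their differences between the groups are given as a description, with no test. Each of the 10 had a mean of at least 10 normalized counts over the 4 libraries, as did 16659 genes in all.

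RNA was sequenced from smooth muscle cells of the lungs of C57BL/6 mice. Mutants carried *Tet3* fl/fl alleles, a tamoxifen-inducible Cre recombinase under the α-SMA promoter (α-SMA-ERT2Cre) and a tdTomato reporter of Cre activity, so that *Tet3*, which encodes a DNA 5-methylcytosine oxidase, was deleted in adult smooth muscle cells. Controls lacked the floxed *Tet3* allele, and both groups were adult mice that had received tamoxifen. The study's general description gives its controls the Cre, the reporter or both, and the sort on tdTomato described next needs both. Lung cells were depleted of CD45+ and Ter-119+ cells with beads and then sorted as tdTomato+ cells that excluded DAPI, and each group had 2 libraries. The study describes the 2 libraries of a group as coming from separate animals.

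Most SLAM receptors bind a second copy of themselves on a neighbouring cell, while CD244 (2B4) binds CD48. The cytoplasmic tyrosine motifs that most of them carry recruit the small adaptors SAP and EAT-2, which couple them to Src-family kinases and phospholipase C gamma. In the absence of the adaptors these motifs recruit phosphatases. The receptors are known from leukocytes, in which they adjust the activity of T, B and NK cells, macrophages and dendritic cells, and they are not known as products of smooth muscle.

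The 9 receptor genes lie in one interval of mouse chromosome 1 (GRCm38, 171559193 to 172590568, 1.03 Mb), and *Sh2d1b1* lies outside it at 170277320 to 170286769 on the same chromosome. RefSeq windows of the 250 bases before the gene start (GRCm38.p6) were found for 9 of the 10 genes and not for *Ly9*. Those of the 3 matched genes with the largest differences, *Sh2d1b1*, *Slamf7* and *Slamf8*, are printed 5′ to 3′ on the gene's own strand, with that of *Slamf1*, whose groups overlapped. Capitals mark matches on either strand to 4 short motifs. The motif GAGGAA and the motif GGAAGT hold the core bound by PU.1 and other ETS factors and can overlap each other. The third is an element bound by interferon regulatory factors, written as a pair of GAAA copies with any 2 bases between them. The last is the TATA box, written as TATAAA.
Sh2d1b1: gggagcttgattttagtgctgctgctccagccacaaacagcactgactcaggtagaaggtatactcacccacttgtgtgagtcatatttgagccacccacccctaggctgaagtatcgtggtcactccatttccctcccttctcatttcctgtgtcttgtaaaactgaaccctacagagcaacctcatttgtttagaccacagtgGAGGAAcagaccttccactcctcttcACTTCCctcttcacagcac
Slamf7: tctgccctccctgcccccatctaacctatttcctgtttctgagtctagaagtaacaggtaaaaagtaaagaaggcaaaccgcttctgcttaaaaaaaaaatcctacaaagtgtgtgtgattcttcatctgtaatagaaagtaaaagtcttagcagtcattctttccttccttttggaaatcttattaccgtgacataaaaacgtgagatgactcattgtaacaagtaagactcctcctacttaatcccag
Slamf8: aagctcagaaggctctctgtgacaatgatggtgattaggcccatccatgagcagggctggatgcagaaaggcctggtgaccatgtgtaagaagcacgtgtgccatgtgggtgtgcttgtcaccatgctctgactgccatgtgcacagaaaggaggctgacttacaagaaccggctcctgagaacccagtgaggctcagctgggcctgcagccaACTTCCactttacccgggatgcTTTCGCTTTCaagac
Slamf1: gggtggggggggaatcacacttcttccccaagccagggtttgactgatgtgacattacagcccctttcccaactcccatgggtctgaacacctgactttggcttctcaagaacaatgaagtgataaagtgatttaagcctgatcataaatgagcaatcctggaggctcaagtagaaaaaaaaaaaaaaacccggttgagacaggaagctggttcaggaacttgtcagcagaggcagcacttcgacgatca

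These windows are chr1:170277068-170277317 (+ strand) for *Sh2d1b1*, chr1:171649000-171649249 (- strand) for *Slamf7*, chr1:172590569-172590818 (- strand) for *Slamf8* and chr1:171766882-171767131 (+ strand) for *Slamf1*. The *Slamf7* window lies wholly within the gene as GENCODE draws it, since a longer transcript starts further upstream, and 8 of its bases are exonic there, against 5 for *Slamf1* and 0 for *Sh2d1b1* and *Slamf8*. The GAGGAA letters were present in 2 of the 9 windows (*Sh2d1b1* and *Slamf9*), against 23.3% of the 32841 RefSeq windows. GGAAGT was present in 3 (*Sh2d1b1*, *Slamf8* and *Slamf9*), against 19.7% of all windows. The pair of GAAA copies was present in the *Slamf8* window alone of the 9, against 2.98% of all, and the TATA box in 0 of 9, against 12.4%. The median GC content of the 9 windows was 48.4% and their median number of CG dinucleotides was 3, against 52.4% and 6 over all windows. A match describes letters in the window and is not a measured site.

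Before the family is described, 3 facts of the libraries bear on its values. The floxed gene *Tet3* was at 1534 and 1444 normalized counts in the mutants and at 1847 and 1926 in the controls (limma adjusted p = 0.681). These counts cover all exons of the gene, so they do not measure loss of the floxed part. The study itself reported a strong drop of the hydroxymethylated base made by TET3 in sorted lung smooth muscle cells. Control replicate 2 stood apart from the others: *Xist* was at 2 normalized counts there against 5214 to 6781 in the other 3 libraries, and the Y-linked gene *Ddx3y* was at 774 there and at 0 in the others. That is the pattern of male cells in control replicate 2 and of female cells in the others, though the labels give no sex. *Ptprc*, which encodes CD45, the antigen used in the depletion, was present in every library, with 2136 and 1364 normalized counts in the controls and 2674 and 1885 in the mutants, and the 10 smooth muscle markers summed to 10558 to 12488, with 9 of 10 higher in mean in mutants and a median log2 difference of 0.46.

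Of the 16659 genes tested with limma, 0 (0%) passed an adjusted p of 0.05, the smallest adjusted p was 0.0902, and 3.83% were higher and 2.85% lower in mutants at an unadjusted p under 0.05. Both mutant libraries lay above both controls for 19.6% of these genes and below both for 19.5%. For the SLAM family, both mutants lay above both controls in 8 of 10 genes, all but *Slamf1* and *Slamf6*. This count is one that the selection of the genes used, and nothing is read from it. Leaving out control replicate 1, control replicate 2, mutant replicate 1 or mutant replicate 2 gave 10, 8, 8 and 9 of the 10, against 39.9%, 32.4%, 32.2% and 30.8% of all tested genes. The median log2 difference, mutant minus control on log2(normalized count + 1), was 0.73 over the 10 genes and -0.01 over all tested genes, and without control replicate 2 the median of the 10 was 0.44. In sorted but bulk RNA, a larger number of cells that express these genes and more of their RNA per cell cannot be told apart.

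**Figure D1:**
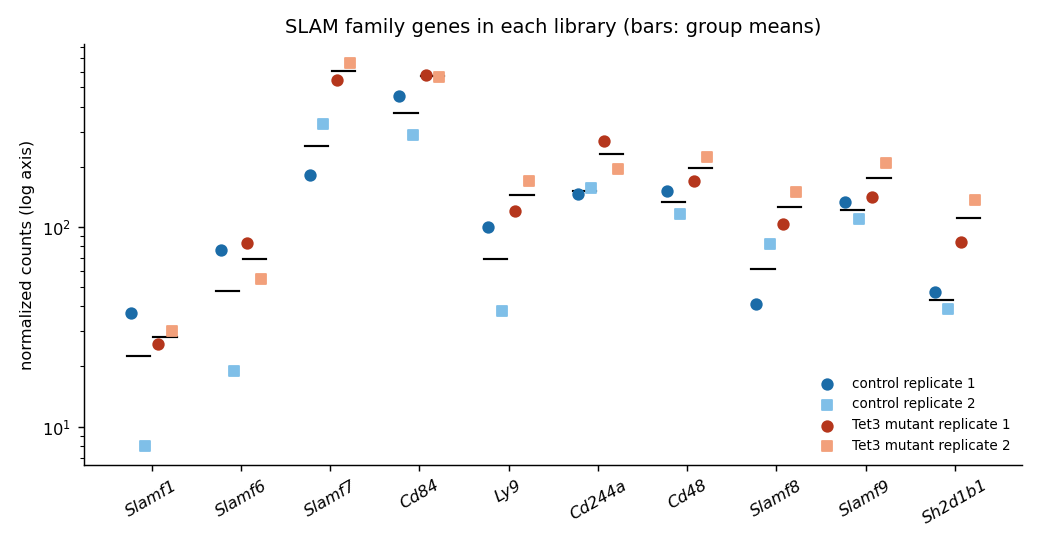
Normalized counts (log axis) of the 10 SLAM family genes in each of the 4 libraries, with a black bar at the mean of each group of 2. The highest single value was 661, for *Slamf7* in mutant replicate 2, and the lowest was 8, for *Slamf1* in control replicate 2.

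The largest difference among the receptors was that of *Slamf7* (ENSMUSG00000038179, - strand, 171632403 to 171653035), which encodes CRACC (CD319), a self-binding receptor of NK cells, plasma cells and activated myeloid cells that signals through EAT-2. In the controls its normalized counts were 183 (replicate 1) and 328 (replicate 2), and in the mutants 543 and 661 in the same order, which is kept for all values that follow. Both mutants were well above both controls, whose own values differed from each other by more than those of the mutants did. The means were 256 ± 103 and 602 ± 83.4 (SD, n = 2 each). The log2 difference was 1.29 ± 0.30 (moderated SE), a fold of 2.44, and folds here and for the other genes are log2 differences transformed back, not ratios of the means. The log2 difference ranged from 0.87 without control replicate 1 to 1.71 without control replicate 2, and of the receptors it was one of 3 (with *Cd244a* and *Slamf8*) whose difference was larger without control replicate 2 than with it. Its exons share 423 bases with those of *Gm37787* on the opposite strand, so the part of its value from those bases is uncertain.

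The gene that encodes EAT-2, *Sh2d1b1* (ENSMUSG00000102418, + strand), had the largest difference of the 10. It had 47 and 39 normalized counts in the controls and 84 and 137 in the mutants. The controls lay close together and the mutants were spread, with the lower mutant still above both controls. The means were 43.0 ± 5.66 and 110 ± 37.5 (SD, n = 2 each). The log2 difference was 1.31 ± 0.34, a fold of 2.47, and leaving out each library in turn gave 0.96 to 1.66. Its neighbouring copy *Sh2d1b2*, which encodes the related adaptor ERT, was at 5, 1, 0 and 0 in control replicates 1 and 2 and mutant replicates 1 and 2. Of the 75-base stretches of the *Sh2d1b1* exons, 9.84% also occur in *Sh2d1b2*, and reads from those places fall under the exclusion of reads that map to several places.

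*Ly9* (ENSMUSG00000004707, - strand, 171588624 to 171607410) encodes CD229, a self-binding receptor of T and B cells. Its values were 100 and 38 normalized counts in the controls and 120 and 169 in the mutants. The groups did not overlap, but control replicate 1 lay nearer to the lower mutant than to the other control. The log2 difference was 1.19 ± 0.50, a fold of 2.29, and it was 1.88 without control replicate 1 and 0.51 without control replicate 2.

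*Cd84* (ENSMUSG00000038147, + strand, 171839697 to 171890718) encodes a self-binding receptor of B cells, platelets, macrophages and mast cells. It had 451 and 289 normalized counts in the controls and 576 and 566 in the mutants. The mutants were nearly equal (571 ± 7.07, SD, n = 2) and the controls were not (370 ± 115, SD, n = 2). The log2 difference was 0.66 ± 0.23, a fold of 1.58, with 0.34 without control replicate 2.

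*Slamf1* (ENSMUSG00000015316, + strand, 171767127 to 171801184) encodes CD150, the receptor after which the family is named. It had 37 and 8 normalized counts in the controls and 26 and 30 in the mutants, so both mutants lay between the 2 controls. *Slamf6* (ENSMUSG00000015314, + strand, 171917515 to 171953170), which encodes Ly108, a receptor of T, B and NK cells, had 77 and 19 in the controls and 83 and 55 in the mutants, so one mutant lay between the controls and the other slightly above them. For both, the high mean difference came with 1 control library, control replicate 2, which was far below the other 3. The log2 differences of 0.65 ± 0.75 for *Slamf1* and 0.80 ± 0.70 for *Slamf6* had the largest errors of the 10, and without control replicate 2 they were -0.39 and -0.19. Without control replicate 1 they were 1.68 and 1.78. The direction of these 2 genes therefore rested on that library.

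The receptor pair CD244 and CD48 differed less. *Cd244a* (ENSMUSG00000004709, + strand, 171559193 to 171609746), which encodes the 2B4 receptor of NK and other cytotoxic cells, had 147 and 157 normalized counts in the controls and 269 and 195 in the mutants. *Cd48* (ENSMUSG00000015355, + strand, 171682009 to 171705258), whose lipid-anchored product is the ligand of 2B4 and also binds CD2, had 151 and 116 in the controls and 170 and 223 in the mutants. In both genes the mutants lay above the controls, for *Cd48* by a narrow gap. The log2 differences were 0.59 ± 0.22 and 0.55 ± 0.24. Without mutant replicate 1 that of *Cd244a* was 0.36, and that of *Cd48* was 0.36 without mutant replicate 2 or without control replicate 2. The ratio of *Cd48* to *Cd244a* counts was 1.03 and 0.739 in the controls and 0.632 and 1.14 in the mutants, so this ratio overlapped between the groups. *Ly9* lies within the span of *Cd244a* on the opposite strand. Whether strand was used in counting is not given in the sources used here, but their annotated exons share 0 bases.

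*Slamf8* and *Slamf9* encode receptors with short cytoplasmic tails that lack the tyrosine motifs of most of the others and are best known from macrophages and dendritic cells. *Slamf8* (ENSMUSG00000053318, - strand, 172581758 to 172590568) had 41 and 82 normalized counts in the controls and 104 and 149 in the mutants. *Slamf9* (ENSMUSG00000026548, + strand, 172475358 to 172478575) had 133 and 109 in the controls and 142 and 210 in the mutants. The controls were in opposite order in the 2 genes, and for *Slamf9* mutant replicate 1 was only slightly above the higher control. The log2 differences were 1.09 ± 0.41 for *Slamf8*, a fold of 2.13, and 0.52 ± 0.26 for *Slamf9*, a fold of 1.43 and the smallest of the 10. Without control replicate 1 that of *Slamf8* was 0.60, and that of *Slamf9* was 0.24 without mutant replicate 2 and 0.80 without mutant replicate 1.

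**Figure D2:**
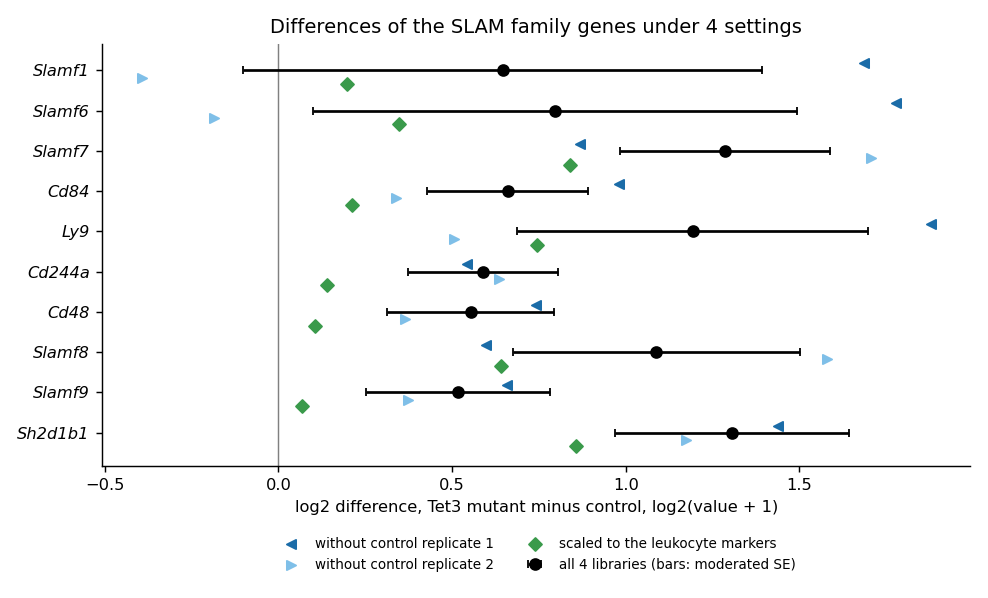
Log2 difference (mutant minus control, log2(normalized count + 1)) of each SLAM family gene over all 4 libraries, with the moderated SE as bars, and without either control library or after scaling to 10 general leukocyte markers. *Slamf1* and *Slamf6* lie below 0 without control replicate 2, and the other 8 genes stay above 0 in each setting shown.

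The order of the 4 libraries differed between the genes. The lowest of the 4 libraries was control replicate 2 for 7 genes and control replicate 1 for 3, *Slamf7*, *Slamf8* and *Cd244a*. The highest was mutant replicate 2 for 6 genes, mutant replicate 1 for 3 and control replicate 1 for *Slamf1*. The summed counts of the 10 genes were 1367 and 1185 in the controls and 2117 and 2395 in the mutants, or 195, 165, 307 and 352 normalized counts in each 1000000 of the library's total.

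Levels between genes were compared per kilobase of GENCODE exon sequence. In the controls the order from the highest was *Cd48* (mean 112 normalized counts per kb), *Slamf9* (92.2), *Cd84* (59.0), *Slamf7* (55.8), *Cd244a* (31.2), *Ly9* (20.9), *Slamf8* (20.0), *Sh2d1b1* (16.9), *Slamf6* (4.43) and *Slamf1* (3.65). In the mutants *Slamf7* was at 132 per kb, next to *Slamf9* at 134, and *Cd84* was at 91.0. Among neighbours of the control order, the library values were apart in both groups for *Slamf9* over *Cd84*, *Slamf7* over *Cd244a* and *Sh2d1b1* over *Slamf6*. The values of the other neighbours overlapped in at least 1 group. The ratio of *Slamf7* to *Cd84* counts was 0.406 in control replicate 1 and 0.943 to 1.17 in the other 3 libraries, control replicate 2 among them, and that of *Slamf8* to *Slamf9* was 0.308 in control replicate 1 and 0.710 to 0.752 in the others. The ratio of *Slamf6* to *Slamf7* was 0.421 in control replicate 1 and 0.0579 to 0.153 in the others. That of *Slamf1* to *Slamf7* was 0.202 in control replicate 1 and 0.0244 to 0.0479 in the others. The ratio of *Ly9* to *Cd244a* did not set control replicate 1 apart. It was 0.680 there, within the 0.446 and 0.867 of the mutants, and 0.242 in control replicate 2.

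Genes that act below the SLAM receptors were followed as a list of 21 adaptors, kinases, phosphatases and effectors, with *Cd2*, of which 19 reached the minimum mean. Their median log2 difference was 0.23, or 0.12 without control replicate 2, and 15 of 19 were above 0, against 49.0% of all tested genes. At an adjusted p of 0.05, 0 of 19 passed in limma, 1 was higher at an unadjusted p under 0.05 (5.26%, against the 3.83% of all tested genes that were higher) and 0 were lower. The number at that p in either direction changed with the library left out, both in this list and over all tested genes. The gene at an unadjusted p under 0.05 was *Vav1*, a guanine nucleotide exchange factor of haematopoietic cells, with 416 and 352 normalized counts in the controls and 538 and 532 in the mutants. Its log2 difference was 0.48 ± 0.14 (limma adjusted p = 0.681). The SAP gene *Sh2d1a* was near the detection floor, at 7, 1, 5 and 6 counts in control replicates 1 and 2 and mutant replicates 1 and 2, and was not tested. *Cd2*, a T and NK cell receptor for CD48, had 214 and 58 in the controls and 185 and 234 in the mutants, with a log2 difference of 0.89 ± 0.62 (limma adjusted p = 0.720) and of -0.04 without control replicate 2. It resembled *Slamf1* and *Slamf6* in that 1 control was far below the other libraries.

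The interval that holds the 9 receptors also holds 23 other genes of the table, of which 18 reached the minimum mean. Their median log2 difference was 0.10, and 13 of 18 were above 0, against 49.0% of all tested genes. The median of the 9 receptors was 0.66, but they were selected on higher mutant values, so nothing is read from the gap. Without control replicate 2 these medians were 0.20 and 0.37, closer to each other, and without control replicate 1 that of the other genes was 0.04. In limma 0 of 18 passed an adjusted p of 0.05, and at an unadjusted p under 0.05 there were 2 higher and 1 lower, 16.7% of the list in all, against 3.83% higher and 2.85% lower over all tested genes. Without mutant replicate 1 the list had 1 such gene. *Pea15a*, which encodes a death-effector-domain phosphoprotein, had 914 and 898 normalized counts in the controls and 1064 and 1113 in the mutants (log2 difference 0.26 ± 0.10, limma adjusted p = 0.681). *Cfap45*, a gene of cilia and flagella, had 107 and 124 in the controls and 171 and 159 in the mutants (0.51 ± 0.19, limma adjusted p = 0.681). Both had narrow replicate spreads and differences below the receptor median. The lower one was *Atp1a4*, the sodium pump subunit of sperm, at 97 and 106 in the controls and 3 and 3 in the mutants (limma adjusted p = 0.462). A value of 3 is the floor under which a level is not told from 0 by counting error, so no fold is given for it.

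**Figure D3:**
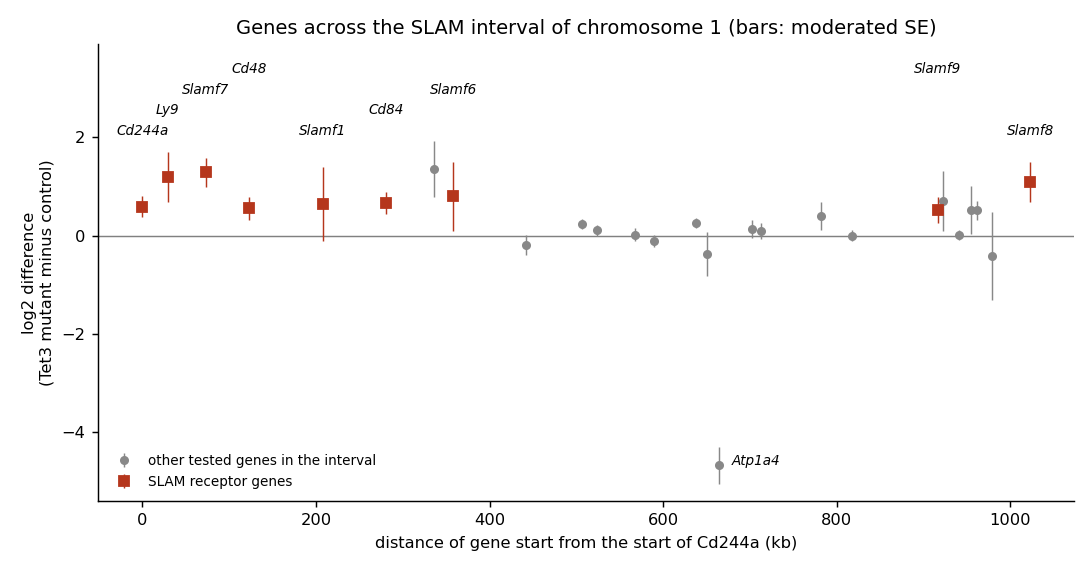
Log2 difference (mutant minus control) of the 9 SLAM receptor genes (squares) and of the 18 other tested genes of the interval (circles) against the distance of the gene start from that of *Cd244a* in kb, with the moderated SE as bars. The receptors were selected on higher mutant values and lie between 0.52 and 1.29. *Atp1a4*, whose mutant values were at the floor, is drawn at its fitted -4.68, which depends on the added 1.

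Levels of general leukocyte markers were also higher in mutants, as were those of the smooth muscle markers (median log2 difference 0.46, with 9 of 10 above 0). The 10 general leukocyte markers, *Ptprc* among them, summed to 7910 and 6255 normalized counts in the controls and 9031 and 8744 in the mutants. Of these, 10 of 10 were higher in mean in mutants, with a median log2 difference of 0.36 and none at 0 in any library. Control replicate 2 was lowest for 8 of the 10 markers, and the log2 difference of *Ptprc*, 0.40, was 0.07 without it. The SLAM family sum was 17.3% and 18.9% of that marker sum in the controls and 23.4% and 27.4% in the mutants. The SLAM genes were selected on higher mutant values, so nothing is read from this rise. When each library was scaled to these markers, the median of the SLAM family was 0.28, with 0.86 for *Sh2d1b1*, 0.84 for *Slamf7*, 0.74 for *Ly9* and 0.64 for *Slamf8*, and 0.07 to 0.35 for the other 6. In this balanced design the scaling lowers each gene's difference by the same amount, so it could not change their order. The 4 genes that stayed highest are those that were highest without it, and nothing more is read from them.

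By cell type, the macrophage and monocyte markers summed to 9204 and 7848 in the controls and 9722 and 11105 in the mutants, with 12 of 13 above 0 and a median log2 difference of 0.40. The dendritic cell markers summed to 2882 and 3310 in the controls and 3626 and 4089 in the mutants, with 8 of 9 above 0 and a median of 0.55. The plasma cell markers summed to 883 and 752 against 1090 and 1222, with 3 of 5 above 0 and a median of 0.29. In these 3 lists, as in the general leukocyte and smooth muscle lists, both mutants were above both controls. The SLAM family sum showed the same, but its genes were selected on higher mutant values, so nothing is read from the likeness. Most of the plasma cell sum was *Jchain*, at 492 and 421 against 693 and 736, and *Irf4*, at 364 and 304 against 371 and 449. *Tnfrsf17* and *Derl3* were lower in mutants (log2 differences -0.45 and -0.14).

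In the lymphocyte lists the summed values of the groups overlapped. The T cell markers summed to 574 and 121 in the controls and 650 and 552 in the mutants (10 of 10 above 0, median 1.15), the NK cell markers to 223 and 64 against 150 and 230 (7 of 7, median 0.43), and the B cell markers to 1393 and 598 against 1197 and 930 (8 of 9, median 0.45). The NK cell marker *Eomes* was at 0 in control replicate 2. Control replicate 2 was lowest in each of these lists and control replicate 1 was within the range of the mutants in the T and NK cell lists and above it in the B cell list, the pattern also seen in *Slamf1*, *Slamf6* and *Cd2*. The neutrophil markers summed to 1240 and 602 against 1562 and 1137 (7 of 7, median 0.80) and the mast cell markers to 1373 and 952 against 1115 and 1096 (0 of 5, median -0.45), with *Mcpt4* at 0 in mutant replicate 1. Most of the mast cell sum was *Kit*, at 1331 and 919 against 1091 and 1070 (log2 difference -0.03). Only 2 of 5 mast cell and 5 of 7 NK cell markers reached the minimum mean, so those medians rest partly on low values. Endothelial markers summed to 9482 and 8082 against 9842 and 8881 (6 of 6, median 0.09), and alveolar type 2 markers to 10641 and 16172 against 7500 and 9650 (0 of 6, median -0.57). The part of these cells in the SLAM family's differences was not tested.

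**Figure D4:**
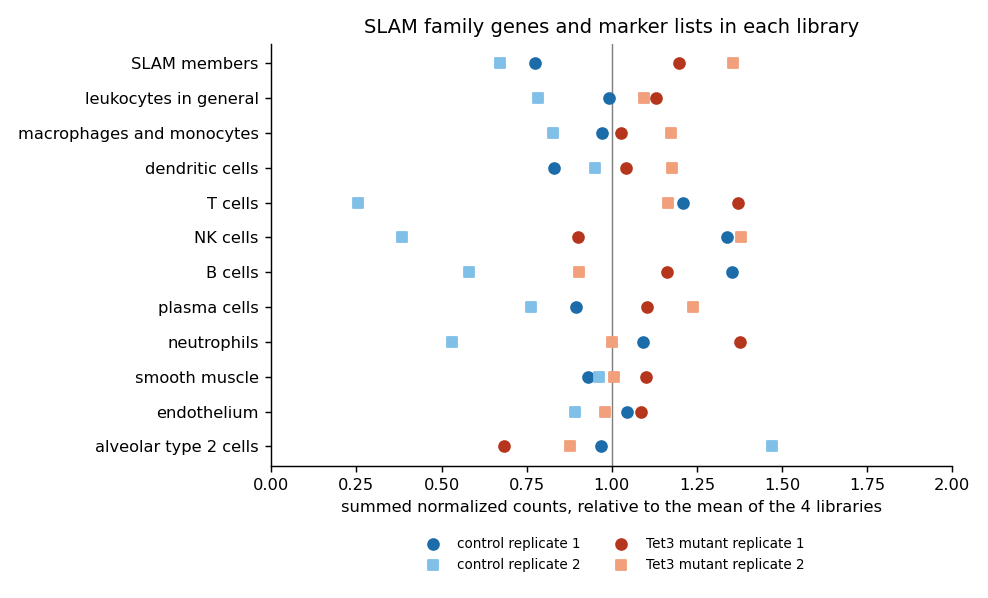
Summed normalized counts of the 10 SLAM family genes and of 11 marker lists in each library, relative to the mean of the 4 libraries (line at 1). Both mutants exceed both controls for the SLAM family, whose genes were selected on higher mutant values. They also do so for the general leukocyte, macrophage, dendritic cell, plasma cell and smooth muscle lists. Control replicate 2 is lowest for the SLAM family and for the general leukocyte, macrophage, T, NK, B and plasma cell, neutrophil and endothelial lists.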

How the data were processed

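Total RNA of sorted lung smooth muscle cells was depleted of ribosomal RNA and made into stranded libraries, which were sequenced in single-end mode. By the submitters' processing notes and the study's methods, Trimmomatic 0.36 trimmed the reads, STAR placed them on GRCm38 and featureCounts of Subread 1.6.0 counted them, leaving out any read with several places or genes. The deposited values are a score: counts that the authors scaled between libraries with DESeq2 and rounded to whole numbers, so they are not raw counts. Deposited totals were 6.81 to 7.16 M per library, and the scaling steps among low values gave an estimated 6.32 to 7.56 M reads in genes. Such values carry counting error, which is large for the lowest genes, and floors of 3 counts cover that error only.

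Groups follow the labelled genotype. Genes averaging at least 10 were fitted on all 4 libraries by lmFit and eBayes (trend on) of limma 3.58.1, run in R 4.3.3, on log2(value + 1), which understates changes of low genes, with Benjamini-Hochberg adjustment over all 16659 genes and a threshold of 0.05. The fit was tested on simulated data. Exon lengths came from GENCODE M21 on GRCm38 and promoter windows from RefSeq. All SLAM genes were named. Of the signalling list, the SAP family, *Cd2* and genes at an unadjusted p under 0.05 were named, as were genes of the interval at that p. The SLAM genes and all lists were chosen with earlier results of these data known. Alternatives were pseudocounts of 0.5 and 8, other minimum means (50 or none), equal library totals, no trend, the replicate number as a block and each library left out. Scaling to leukocyte markers was added after seeing the data.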

Additional observations from a re-analysis of the deposited data

How the results depend on the processing

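The median log2 difference of the SLAM family was 0.73, and over the libraries left out in turn it ranged from 0.44 without control replicate 2 to 0.92 without control replicate 1. It was 0.28 after scaling to the leukocyte markers. The median of the signalling list, 0.23 over all libraries, ranged from 0.12 without control replicate 2 to 0.32 without control replicate 1. In limma 0 genes passed the adjusted threshold, against 1112 at an unadjusted p under 0.05, a number that ranged from 273 (without mutant replicate 1) to 3366 (without control replicate 1) over the libraries left out. In the signalling list that number was 1, with 0 (without mutant replicate 2) to 8 (without control replicate 1) over the libraries left out, 3 at equal library totals and 2 with the replicate block. Among the genes between the receptors it was 3, with 1 under the replicate block and 1 without mutant replicate 1. Without the mean-variance trend 1 gene passed. The cause of these changes was not tested. With the replicate number as a block (replicate block), 0 genes passed, and the SLAM median of 0.73 could not change, since a block leaves the differences as they are in this balanced design. Over 2 pairs, same-numbered libraries deviated together weakly (Pearson 0.134, Spearman 0.123 across 16659 genes, which are not independent), so the numbers were not shown to pair. Leaving out control replicate 2 put 8 of the 10 SLAM genes above 0. Under the other alternatives each SLAM gene in the fit was above 0, with 9 in the fit at a minimum mean of 50, which dropped *Slamf1*. With 2 libraries per group, the spread of each SLAM gene is poorly known, and *Slamf1*, *Slamf6* and *Sh2d1a* rest on few reads. Counts were also low in the controls for *Sh2d1b1* (47 and 39), in control replicate 2 for *Ly9* (38) and in control replicate 1 for *Slamf8* (41).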
